A study of Drosophila melanogaster with 4 samples.

Results

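The genes described here encode ion channels and neurotransmitter receptors of Drosophila. A list of 36 genes was chosen by symbol for what the proteins do, and each symbol was matched to a FlyBase identifier among the 17875 gene rows of the 4 matrices. Of the 36 genes, 35 had a row, and Ca-beta, the auxiliary beta subunit of voltage-gated calcium channels, was not analysed here. The 35 genes comprise 1 voltage-gated sodium channel (para), 4 calcium channel genes, 10 potassium and cyclic nucleotide-gated channels, 10 subunits of nicotinic acetylcholine receptors, 3 GABA receptor subunits, 5 subunits of the muscle glutamate receptor and 2 NMDA receptor subunits.

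Voltage-gated channels let a cell fire action potentials and release transmitter, and ligand-gated receptors turn a released transmitter into a current in the receiving cell. In insects, acetylcholine is the main excitatory transmitter of the central nervous system, while motor neurons release glutamate onto receptors of body wall muscle. The Drosophila embryo makes its neurons and muscles early and joins them into working synapses only toward the end of embryogenesis.

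Single cells of whole wild-type embryos (strain OregonR) were profiled by 10x Genomics scRNA-seq at stages 13-16 and at stages 10-12, with 2 libraries per stage. Embryos of stages 13-16 were aged at room temperature and those of stages 10-12 at a lower temperature, and each library came from a collection of its own, so stage and collection cannot be told apart. Nothing in the labels names separate parents or cages, and p-values between the stages therefore measure the spread between these libraries (n = 2 per stage). Where classes of the same library were compared, p-values measure how far the gap within a library varied between libraries, and not the spread of the levels. By the study's account the later pair of collections was not of one age, the first holding more of the older embryos. Their spread thus holds age as well as error, and neither can be told apart from the other. Levels are given as CPM, the UMIs (unique molecular identifiers, 1 per captured RNA molecule) of a gene per 1000000 UMIs of all cells of a class in a library.

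The libraries held between 13758 and 39078 barcodes and between 71622535 and 394684653 UMIs, and any pair of libraries shared between 94 and 389 barcodes. After filtering, 21361 and 21879 cells remained at stages 13-16 and 13258 and 7388 cells at stages 10-12. Median UMIs per kept cell were 2579 and 7877 at stages 13-16 against 4244.5 and 2673 at stages 10-12, so the second stage 13-16 library was the deepest. All 35 genes together took 219 and 312 CPM of all kept cells at stages 13-16, against 137 and 62.2 CPM at stages 10-12. In the droplets that were removed as likely empty, the same genes took 78.7 and 205 CPM at stages 13-16 and 64.5 and 35.4 CPM at stages 10-12.

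Cells were clustered without the 35 genes, and each cluster was named from markers of other genes, so "neuron-like" means a cluster whose neuron markers scored highest. There were 927 and 1736 neuron-like cells in the stage 13-16 libraries and 1152 and 440 in those of stages 10-12, 4566 and 3788 against 1083 and 466 somatic-muscle-like cells, and 434 and 586 against 207 and 95 glia-like cells. The pan-neuronal marker elav stood at 883 and 1447 CPM in neuron-like cells of stages 13-16, against 2336 and 1636 CPM at stages 10-12. The synaptic vesicle gene nSyb, a mark of mature neurons, stood at 162 and 405 CPM at stages 13-16, against 73.3 and 3.56 CPM at stages 10-12. The lower value of stages 13-16 came from the library that the study describes as older. The neuron-like cells of the 2 stages thus differed in a marker of maturity, and its part in the results below was not tested. At stages 10-12, 1 of the 3 neuron-like clusters (cluster 14) was close to newborn neurons, with a marker score of 2.89 for neurons and 2.68 for newborn neurons. It held 34.7% and 28.9% of the neuron-like cells and 3691581 of 5795792 neuronal UMIs in the first library, and Hey, also a leading gene of newborn-neuron-like clusters, led it. With coarser clustering (resolution 1), cells led by nerfin-1, Oli and Hey formed a newborn-neuron-like cluster. Results that turn on it are given with and without this cluster. The glial marker repo stood at 142 and 649 CPM in glia-like cells of stages 13-16 and at 555 and 609 CPM at stages 10-12. Hml, a hemocyte marker, was at 0 in plasmatocyte-like cells of all 4 libraries, where the 7 other plasmatocyte markers summed to between 3739 and 14260 CPM.

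Ordered by mean CPM over the 2 libraries of a stage, neuron-like cells held the highest level of 20 of the 35 genes at stages 13-16 and of 19 at stages 10-12. Visceral-mesoderm-like cells came first for 5 genes at stages 13-16 and 4 at stages 10-12, and somatic-muscle-like cells for 4 and 1. Both libraries of the first class stood above both libraries of the second for 21 genes at stages 13-16 and for 5 at stages 10-12. For the remaining genes the neighbours in that order could not be separated beyond the spread of the libraries. Grd, a GABA receptor subunit gene, had 26 UMIs in all kept cells and no level that could be ordered. The heat map of levels by class shows the 3 patterns that recur below, a neuronal block, a muscle block and single genes that lead in other tissues.

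**Figure D1:**
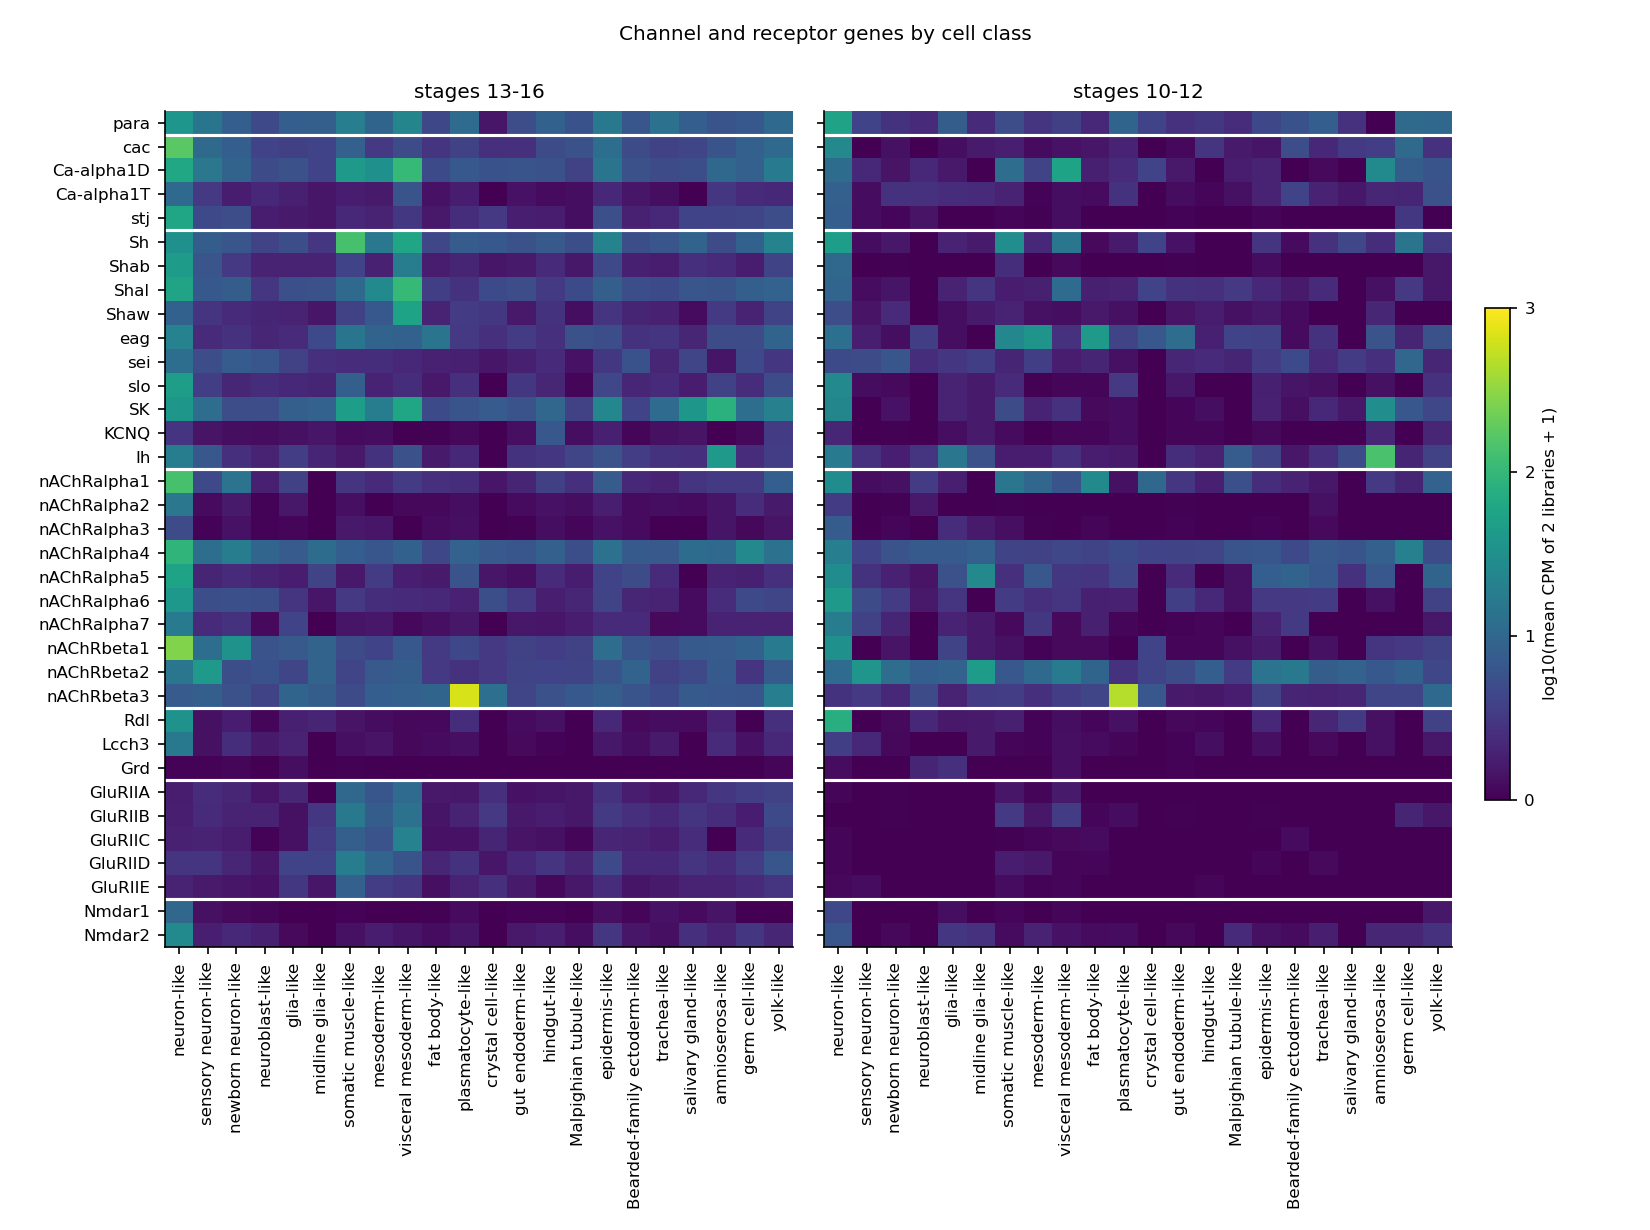
Level of each channel and receptor gene (rows, grouped by family) in each named class (columns), as log10(CPM + 1) of the mean of the 2 libraries, for stages 13-16 (left) and stages 10-12 (right). Brighter colours stand for higher levels, and 20 of the 35 genes are brightest in the neuron column at stages 13-16, Sh in the somatic muscle column, and nAChRbeta3 in the plasmatocyte column at both stages (658 and 468 CPM on average).

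The first comparison asked which genes were higher in neuron-like cells than in all remaining cells of the same library. At stages 13-16, 23 of 34 genes tested were higher in neuron-like cells and 5 were lower, by edgeR's quasi-likelihood test with Benjamini-Hochberg adjustment over all genes (adjusted p below 0.05). Over all 11210 genes tested, 19.0% were called higher and 31.3% lower. The median log2 difference of the 34 genes was 2.58, against -0.29 for all genes tested. Both counts rest on classes built from other genes of the same cells.

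All 9 acetylcholine receptor subunits other than nAChRbeta3 were higher. nAChRbeta1, a beta subunit (FBgn0000038, 3L:4429349-4435993, BDGP6.54), stood at 213 and 323 CPM in neuron-like cells, against 7.37 and 8.38 CPM in the remaining cells. Both neuronal values lay above both others, with a log2 difference of 4.96 ± 0.16 (SE, adjusted p = 3.5e-08). The alpha subunit gene nAChRalpha1 stood at 81.0 and 184 CPM, against 3.41 and 3.89 CPM (4.99 ± 0.39, adjusted p = 3.0e-06). nAChRalpha2, nAChRalpha5 and nAChRalpha7, further alpha subunits, had log2 differences between 4.06 and 4.82.

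The removed droplets held 9.16 and 20.0 CPM of nAChRbeta1 at stages 13-16, at or above the level of the remaining cells. Summed over all remaining cells, the level of this gene was therefore no higher than in droplets taken as empty. This does not hold for each class among them, since newborn-neuron-like cells, described below, stood above the droplets in both libraries.

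Of the calcium channel genes, all 4 were higher in neuron-like cells at stages 13-16. cac, the pore-forming subunit of the presynaptic calcium channel, stood at 93.0 and 248 CPM in neuron-like cells and at 6.17 and 6.41 CPM in the remaining cells. Its log2 difference was 4.52 ± 0.42 (adjusted p = 1.0e-05). stj, the alpha2delta subunit that carries calcium channels to the synapse, stood at 45.6 and 67.9 CPM against 2.03 and 2.39 CPM (4.56 ± 0.25, adjusted p = 2.5e-07). For both genes the neuronal libraries lay above the others without overlap.

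Among the receptors for GABA and glutamate, Rdl, the main ionotropic GABA receptor subunit, stood at 2.41 and 62.5 CPM in neuron-like cells at stages 13-16, against 0.336 and 0.92 CPM in the remaining cells. Each library was higher in its neurons, by 5.14 ± 0.63 on the log2 scale (adjusted p = 6.9e-05), but the 2 neuronal values themselves lay far apart. Lcch3, another subunit of this family, differed by 4.70 ± 0.51. Nmdar1, the obligatory NMDA receptor subunit, stood at 5.63 and 12.1 CPM in neuron-like cells and at 0.112 and 0.231 CPM in the remaining cells, the widest gap of the list at this stage (5.57 ± 0.60, adjusted p = 2.9e-05). Nmdar2 differed by 4.70 ± 0.46.

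Potassium channels were divided. Shab (a delayed rectifier), Shal (an A-type channel), eag, sei (the fly ERG channel), slo (the large-conductance calcium-activated channel) and Ih (the hyperpolarization-activated cyclic nucleotide-gated channel) were higher in neuron-like cells, and Shab differed by 3.98 ± 0.29. Sh, SK, Shaw and KCNQ did not pass the test. Sh, the A-type channel behind the Shaker mutant, stood at 5.63 and 55.9 CPM in neuron-like cells and at 34.9 and 32.7 CPM in the remaining cells, and the ranges overlapped. para, the only gene of the list for a voltage-gated sodium channel, also failed to pass, with 11.3 and 62.9 CPM against 13.0 and 10.0 CPM. The 5 genes that were lower were GluRIIA, GluRIIB, GluRIIC, GluRIID and nAChRbeta3, which are taken up with muscle and plasmatocytes below. Muscle-like and plasmatocyte-like cells are part of the remaining cells here. By mean CPM, neuron-like cells had rank 12 of 23 classes for nAChRbeta3.

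At stages 10-12, 23 of the 34 genes were higher in neuron-like cells and 1, nAChRbeta3, was lower, while 17.7% of all genes were called higher and 20.6% lower. The median log2 difference was 2.86, against -0.13 for all genes. nAChRbeta1 stood at 43.0 and 19.8 CPM in neuron-like cells and at 0.607 and 0.314 CPM in the remaining cells (6.16 ± 0.21, adjusted p = 1.0e-08). stj followed with 11.9 and 2.04 CPM against 0.183 and 0.0739 CPM (5.87 ± 0.39, adjusted p = 1.1e-06). Shab differed by 5.17 ± 0.43 and cac by 5.06 ± 0.57. Unlike at stages 13-16, para and SK were called, with log2 differences of 3.75 ± 0.99 and 3.59 ± 0.77, but whether either differed from its value at stages 13-16 did not pass the test described next.

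Several of these values rested on 1 library. Rdl stood at 151 and 0 CPM in neuron-like cells at stages 10-12, Sh at 91.1 and 0 CPM, slo at 50.0 and 0 CPM, and SK at 45.9 and 0 CPM. The first value is the first library in each case, and the second library held no UMI of these genes in its 440 neuron-like cells. nAChRalpha3 had no UMI there either. The log2 differences of Rdl (6.63 ± 0.74), slo (5.21 ± 0.72), nAChRalpha3 (5.59 ± 1.16) and SK therefore describe that library. Without the first stage 10-12 library, para differed by 0.71 and Nmdar2 by 1.64.

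The difference between the stages in the gap between neuron-like and remaining cells passed the test for 2 of 34 genes, 1 in each direction, where 0.723% of all genes were called higher at stages 13-16 and 1.74% lower. The gap of nAChRalpha1 was wider at stages 13-16 by 2.58 ± 0.52 on the log2 scale (adjusted p = 0.026). Its level in the remaining cells was 3.41 and 3.89 CPM at stages 13-16 and 5.66 and 4.66 CPM at stages 10-12. The gap of nAChRbeta1 was narrower and changed by -1.20 ± 0.24 (adjusted p = 0.025), with levels in the remaining cells of 7.37 and 8.38 CPM against 0.607 and 0.314 CPM. Neither direction nor call was stable for nAChRbeta1, whose sign turned with doublets kept (0.32), without Harmony, the correction for library (0.64), and without the small cluster described next (0.0083). nAChRalpha1 kept its sign but was not called in the first and second of these fits (1.82 and 2.11), at resolution 1 (2.14), with newborn neurons joined to the class (3.72), without a block (2.49) or without cluster 14 (1.59). Without the first stage 10-12 library nAChRbeta1 was no longer called, at -1.07, and 4 genes were. The number called was 9 without either stage 13-16 library and 10 without the second stage 10-12 library.

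The small cluster behind these values held 94 and 20 of the neuron-like cells at stages 10-12, or 8.16% and 4.55% of them. Its leading genes were nrv3, Ggamma30A, Rbp6, cpx, IA-2 and further neuronal genes, and each of the 13 neuron markers was detected in at least 10% of its cells. In the first library its cells took 7319 CPM of channel and receptor UMIs and held 88.4% of all such UMIs of neuron-like cells. In the second library they took 843 CPM and held 30.9%. The other 2 neuron-like clusters of these stages took 237 and 68.5 CPM, and 79.9 and 62.3 CPM.

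nSyb stood at 606 and 107 CPM in the small cluster, against 10.4 and 0 CPM and 1.90 and 0 CPM in the other 2, and elav at 1113 and 1165 CPM. These cells thus carried the marker of mature neurons that most neuron-like cells of stages 10-12 lacked. In the first library the cluster held 1286 CPM of Rdl, 823 CPM of para, 739 CPM of Sh, 579 CPM of nAChRalpha6 and 429 CPM of slo. In the second library Rdl, para, Sh, slo, SK and Ih were at 0 in the cluster, whose 20 cells had 65229 UMIs, and nAChRbeta1 stood at 276 CPM and cac at 138 CPM. nSyb thus moved with the channel genes between these clusters, and its part in their values was not tested.

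**Figure D2:**
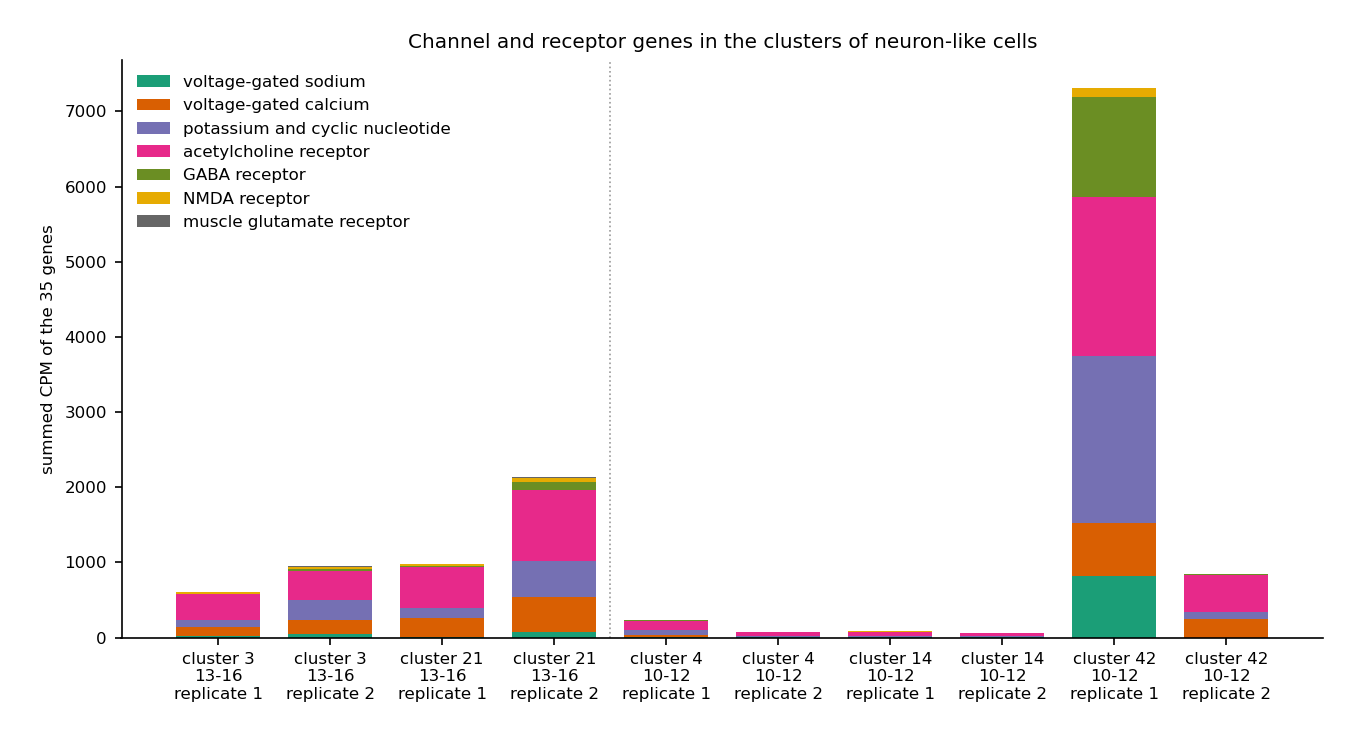
Summed level of the 35 genes, in CPM on a linear axis, in each neuron-like cluster and library, as bars divided by gene family, with the stage 13-16 clusters left of the dotted line and the stage 10-12 clusters right of it. The small stage 10-12 cluster (cluster 42) reaches 7319 CPM in the first library and 843 CPM in the second, and the remaining stage 10-12 clusters lie between 62.3 and 237 CPM.

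Without the small cluster, 8 of the 34 genes were higher in neuron-like cells at stages 10-12 and 3 were lower, where 16.9% of all genes were called higher and 21.0% lower. The 8 were nAChRalpha1, nAChRalpha4, nAChRalpha6, nAChRalpha7, nAChRbeta1, stj, Shab and Shal. The 3 lower genes were Ca-alpha1D, eag and nAChRbeta3. cac then stood at 3.31 and 0 CPM in neuron-like cells, Rdl at 4.29 and 0 CPM, and nAChRbeta1 at 16.2 and 11.1 CPM. This omission was chosen after the levels of the listed genes in the cluster had been seen, so the fall in the count is a description and no test.

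The second comparison asked which of the genes differed between the stages within neuron-like cells. 2 of 28 genes tested were higher at stages 13-16 and 0 were lower (edgeR), while 4.59% of all genes were called higher and 2.12% lower. At an unadjusted p below 0.05 the count was 11, and DESeq2 called 7. The median log2 difference of the 28 genes was 0.89, with 21 above 0, against -0.01 for all genes.

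nAChRbeta1 stood at 213 and 323 CPM in neuron-like cells of stages 13-16, against 43.0 and 19.8 CPM at stages 10-12, a log2 difference of 2.92 ± 0.35 (adjusted p = 0.029). nAChRalpha4, an alpha subunit gene, stood at 96.8 and 85.8 CPM against 23.3 and 12.7 CPM (2.20 ± 0.33, adjusted p = 0.032). For both genes the stages did not overlap. The calls depended on how cells were clustered, with 0 genes called at resolution 1, with doublets kept and without Harmony, where nAChRbeta1 differed by 2.26, 2.63 and 3.02 and nAChRalpha4 by 1.77, 1.87 and 1.95. Without cluster 14, 0 of 28 genes were called by edgeR with 2 at an unadjusted p below 0.05, and 0% of all genes in either direction, and nAChRbeta1 differed by 2.01 (adjusted p = 0.11). Neither was called when either stage 13-16 library was left out, with log2 differences of 3.04 and 2.78 for nAChRbeta1 and of 1.93 and 2.44 for nAChRalpha4. The number of genes called was 0 in both of those fits, 17 without the first stage 10-12 library and 6 without the second.

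Several presynaptic and synaptic genes showed the same order of values without passing the test. cac stood at 93.0 and 248 CPM at stages 13-16, against 44.7 and 4.58 CPM at stages 10-12. stj stood at 45.6 and 67.9 CPM against 11.9 and 2.04 CPM, and nAChRalpha1 at 81.0 and 184 CPM against 47.6 and 8.14 CPM. The libraries of the 2 stages did not overlap for these 3 genes, nor for Ca-alpha1D, the L-type calcium channel (52.0 and 69.1 CPM against 19.0 and 2.04 CPM). A second set of genes overlapped widely, because the first stage 10-12 library was above the first stage 13-16 library. para stood at 11.3 and 62.9 CPM against 98.2 and 5.6 CPM, and Rdl at 2.41 and 62.5 CPM against 151 and 0 CPM.

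**Figure D3:**
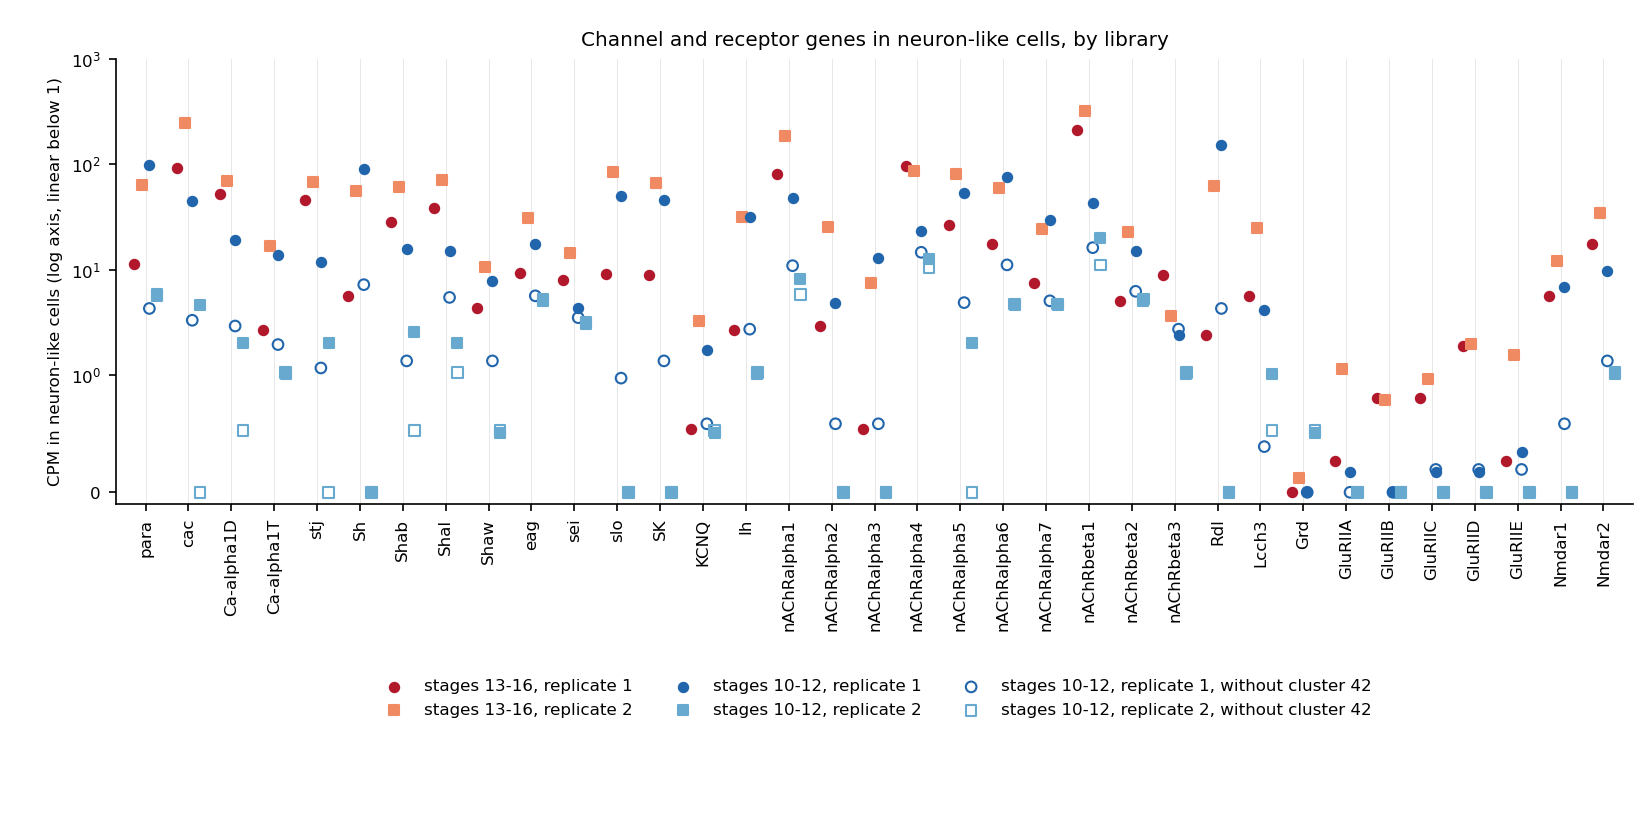
Level of the 35 channel and receptor genes in neuron-like cells, in CPM on a log10 axis that is linear below 1 CPM, with 1 filled point per library, stages 13-16 left of stages 10-12 within each gene, and open points for the stage 10-12 libraries without their small cluster (cluster 42). The stages separate for nAChRbeta1 (213 and 323 against 43.0 and 19.8 CPM) and overlap for Rdl and para, where the first stage 10-12 library is the highest.

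With the small cluster taken out of stages 10-12 alone, 20 of 27 genes tested were higher at stages 13-16 and 0 lower, where 17.5% of all genes were called higher and 7.42% lower. That omission removed most channel UMIs from one side only and so fixed the direction, and no support is drawn from it. An omission on both sides took out the cluster with the most nSyb, which is not a gene of the list, from each stage. These were the small cluster and, at stages 13-16, the cluster that held 67.3% and 87.9% of the channel and receptor UMIs of neuron-like cells. In the neuron-like cells that remained, 19 of 23 genes tested were higher at stages 13-16 and 0 lower, where 21.2% of all genes were called higher and 14.2% lower. nAChRbeta1 then differed by 2.69, nAChRalpha4 by 2.59, nAChRalpha1 by 2.58, cac by 5.10 and stj by 4.78. para, SK, slo, Sh, Shab and Shal were called too, and so was Rdl (2.72). Genes scarce in both stages did not enter the 23, and this omission was also added after the data had been seen. A gene could pass the filter on low counts through the stage 13-16 libraries alone. That favours calls in the direction seen, so no support is drawn from this count either. nSyb still stood at 33.6 and 65.8 CPM in the remaining stage 13-16 cluster. In the 2 remaining stage 10-12 clusters it stood at 10.4 and 0 CPM and at 1.90 and 0 CPM. Cluster 14 was among the stage 10-12 cells compared here. A fitted difference against a library at 0 depends on the prior count of the fit and is no bound. GluRIIB had 16 UMIs in neuron-like cells at stages 13-16 and 0 at stages 10-12, which makes it at least 2.04-fold higher by a floor of 3 UMIs over the group.

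Neurons with many UMIs weighed heavily on the deepest library. There were 16 and 150 cells above 20000 UMIs in the stage 13-16 libraries, against 30 and 10 in the stage 10-12 libraries. In the second stage 13-16 library they held 61.6% of the neuronal UMIs and 68.8% of the UMIs of the 35 genes, while in the other libraries they held between 10.7% and 27.1% of the UMIs of these genes. Without such cells, 7 genes were higher at stages 13-16, namely nAChRbeta1, nAChRalpha4, cac, stj, Ca-alpha1D, Shab and Shal. The share of all genes called in that fit is not given here, so the count is not read as a result about the listed genes.

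Shares of cells gave the same order for nAChRbeta1. With every cell thinned to 1000 UMIs, 11.5% (95% exact Clopper-Pearson interval 9.52 to 13.7) and 14.4% (12.8 to 16.2) of neuron-like cells of stages 13-16 held a UMI of nAChRbeta1. The stage 10-12 libraries had 2.26% (1.48 to 3.30) and 1.14% (0.370 to 2.63). The intervals of the stages did not overlap, and they cover counting error only. In gut-endoderm-like cells, which should lack the gene, between 0 and 0.690% held a UMI, at median depths of 2451 to 21334 UMIs per cell, and in plasmatocyte-like cells between 0 and 0.865%, at 2028.5 to 15896.5. Neuron-like cells had median depths of 2511 to 2938. Without thinning, the neuronal shares were 27.9% and 36.3% at stages 13-16, against 7.03% and 3.18% at stages 10-12. Between 0 and 6 neuron-like cells per library had fewer than 1000 UMIs and were left out of the thinned shares.

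Newborn-neuron-like cells, named from markers of freshly born neurons, held 19.3 and 46.6 CPM of nAChRbeta1 at stages 13-16, against 0.556 and 0.35 CPM at stages 10-12. Their nAChRalpha4 stood at 15.9 and 19.7 CPM against 5.08 and 4.55 CPM. Both genes were lower there than in neuron-like cells of the same libraries, and in both classes the stage 13-16 libraries were the higher ones.

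The 2 clusters of neuron-like cells at stages 13-16 are described without a test. The smaller, with 320 and 395 cells, held 977 and 2131 CPM of channel and receptor UMIs, against 607 and 950 CPM in the larger one with 607 and 1341 cells. nAChRbeta1 stood at 298 and 393 CPM in the smaller and at 104 and 94.5 CPM in the larger cluster, and nSyb at 262 and 509 CPM against 33.6 and 65.8 CPM. Median UMIs per cell were 2703 and 13891 in the smaller and 2440 and 2676 in the larger cluster, so depth moved with the level in the second library and far less in the first. Sh did not follow this order, with 4.78 and 55.8 CPM in the smaller and 6.72 and 56.3 CPM in the larger cluster.

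Neuron-like cells of stages 13-16 were also divided by transmitter, as cells with a UMI of the genes of 1 class alone. These were 62 and 97 GABAergic cells (Gad1 or VGAT), 115 and 288 cholinergic cells (ChAT or VAChT) and 29 and 58 glutamatergic cells (VGlut). No gene of the list passed the edgeR test in any of the 3 classes among 23 tested, where 0.341%, 0.359% and 0.287% of all genes were called in either direction. The counts at an unadjusted p below 0.05 were 4, 2 and 2, and DESeq2 called 0. SK, the small-conductance calcium-activated potassium channel, was nearest, with 14.6 and 115 CPM in cholinergic cells, against 2.62 and 32.1 CPM in GABAergic and 4.44 and 45.8 CPM in glutamatergic cells. It was higher in both libraries, by 1.66 ± 0.28 on the log2 scale, with an adjusted p of 0.058. Cells with no UMI of any class numbered 700 and 1119, and cells with UMIs of more than 1 class 21 and 174, and neither entered this comparison.

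Somatic muscle held the second group of genes, though not for each of them the highest level. The 5 GluRII genes encode the subunits of the glutamate receptor at the neuromuscular junction, in which GluRIIC, GluRIID and GluRIIE are present in every receptor and GluRIIA and GluRIIB take the place of each other. GluRIID and GluRIIE overlap on the minus strand of 3R (20648595-20652450 and 20644154-20648716, BDGP6.54), and GluRIIA overlaps CG14017 on its strand, so that UMIs could be divided between such neighbours and single values are uncertain by that much. All 5 rose at stages 13-16 in somatic-muscle-like cells.

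The muscle-like class differed in its make-up between the stages. At stages 13-16, 3736 of the 8354 muscle-like cells lay in a cluster led by lmd, Vrp1 and Act87E, and each muscle-like cluster had 14 or 15 of the 15 muscle markers detected. At stages 10-12, 817 of 1549 cells lay in a cluster led by Vrp1, blow and Kah, with 9 of the markers detected, and 110 in a cluster led by bt, Mf and Mhc. Mhc, the muscle myosin heavy chain, stood at 201 and 560 CPM in muscle-like cells of stages 13-16, against 123 and 2.59 CPM at stages 10-12. The 15 muscle markers summed to 11217 and 19396 CPM against 11844 and 7423 CPM. Muscle maturity thus moved with the stage, and its part in the values that follow was not tested.

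GluRIIC stood at 3.37 and 10.6 CPM in muscle-like cells of stages 13-16, against 0.0743 and 0 CPM at stages 10-12, where it had 1 UMI in all. The log2 difference was 7.02 ± 0.98 (adjusted p = 0.0084), a fitted value that depends on the prior count. GluRIID stood at 14.2 and 19.7 CPM against 1.11 and 0.408 CPM (4.36 ± 0.38, adjusted p = 0.0043), and the stages lay far apart. GluRIIE stood at 4.22 and 10.5 CPM against 0.520 and 0 CPM (4.50 ± 0.83, adjusted p = 0.016).

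Of the exchangeable subunits, GluRIIA stood at 4.22 and 14.2 CPM against 1.04 and 0 CPM (3.86 ± 0.94, adjusted p = 0.030) and GluRIIB at 15.1 and 15.5 CPM against 3.27 and 1.23 CPM (2.73 ± 0.39, adjusted p = 0.0088). No stage 10-12 library reached a stage 13-16 library for any of the 5 genes. Without the second stage 13-16 library, GluRIIA (3.01) and GluRIIE (3.94) were no longer called.

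**Figure D4:**
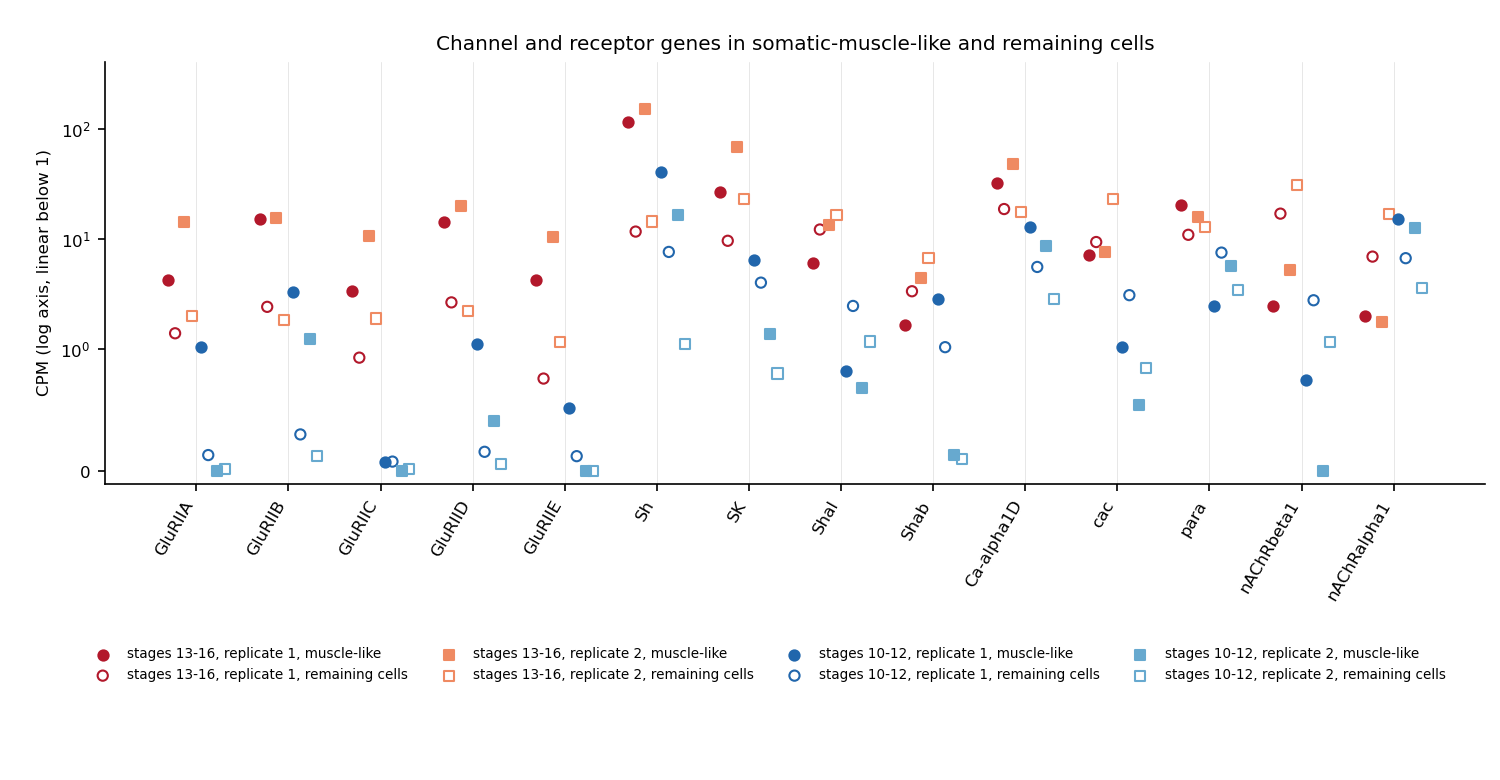
Level of the GluRII genes and further channel and receptor genes in somatic-muscle-like cells, in CPM on a log10 axis that is linear below 1 CPM, with 1 filled point per library, an open point for the remaining cells of the same library, and stages 13-16 left of stages 10-12 within each gene. In muscle-like cells all GluRII genes, Sh and SK are higher in both stage 13-16 libraries, and nAChRalpha1 is lower (1.99 and 1.75 against 15.2 and 12.7 CPM).

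In all, 13 of 26 genes tested were higher in muscle-like cells at stages 13-16 and 1 was lower, while 19.0% of all 8986 genes were called higher and 9.63% lower. The median log2 difference was 2.06, against 0.08 for all genes. Sh stood at 114 and 150 CPM at stages 13-16, against 40.4 and 16.3 CPM at stages 10-12 (2.23 ± 0.35, adjusted p = 0.011). SK stood at 26.6 and 68.0 CPM against 6.39 and 1.36 CPM (3.50 ± 0.62, adjusted p = 0.015). Shal differed by 3.65 ± 0.46, cac by 3.18 ± 0.41 and para by 2.23 ± 0.48, and Ca-alpha1D and nAChRalpha4 were called as well. para was no longer called without the first stage 13-16 library (1.80).

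nAChRalpha1 was the gene that fell, with 1.99 and 1.75 CPM in muscle-like cells of stages 13-16, against 15.2 and 12.7 CPM at stages 10-12 (-2.88 ± 0.29, adjusted p = 0.0050). The stages did not overlap. nAChRbeta1 moved the other way in the same cells, with 2.45 and 5.25 CPM against 0.743 and 0 CPM (3.13 ± 0.90, adjusted p = 0.048). That call was lost without either stage 13-16 library (3.43 and 2.71) and without the second stage 10-12 library (2.34). The 13 neuron markers summed to 228 and 391 CPM in muscle-like cells of stages 13-16 and to 183 and 186 CPM at stages 10-12, and nSyb stood at 2.95 and 6.92 CPM against 0.743 and 0.408 CPM. nSyb, nAChRbeta1 and cac (7.17 and 7.65 CPM against 1.04 and 0.544 CPM) were thus all higher at stages 13-16 in muscle-like cells, and the part of neuronal RNA in the values of cac and nAChRbeta1 was not tested.

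Compared with the remaining cells of the same libraries, muscle-like cells of stages 13-16 were higher for 11 of 34 genes and lower for 13, where 29.4% of all genes were called higher and 30.1% lower. Sh had the widest gap, with 114 and 150 CPM in muscle-like cells and 11.6 and 14.4 CPM in the remaining cells (3.84 ± 0.22, adjusted p = 3.7e-07). The 5 GluRII genes followed, between 2.70 ± 0.30 for GluRIIC and 3.37 ± 0.21 for GluRIIB. GluRIID stood at 2.65 and 2.21 CPM in the remaining cells, well below the 14.2 and 19.7 CPM of muscle.

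SK and eag were also higher in muscle-like cells, by 2.01 ± 0.13 and 1.79 ± 0.15, and so were Ca-alpha1D, para and slo. Among the genes that were lower, nAChRbeta1 differed by -2.16 ± 0.22 and nAChRalpha1 stood at 1.99 and 1.75 CPM in muscle-like cells, against 6.90 and 16.9 CPM in the remaining cells (-2.10 ± 0.33, adjusted p = 0.00026). nAChRbeta3 differed by -2.60 ± 0.15 and stj by -1.91 ± 0.34, and Rdl, Lcch3, Nmdar1 and Nmdar2 were among the others. Neurons, plasmatocytes and visceral mesoderm are part of the remaining cells here. By mean CPM, SK stood higher in amnioserosa-like (82.4) and visceral-mesoderm-like cells (56.9) than in muscle-like cells (47.3).

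At stages 10-12, 10 of 34 genes were higher in muscle-like cells and 9 lower, where 20.1% of all genes were called higher and 30.0% lower. Sh stood at 40.4 and 16.3 CPM in muscle-like cells, against 7.61 and 1.11 CPM in the remaining cells (3.16 ± 0.24, adjusted p = 2.0e-06). GluRIIB stood at 3.27 and 1.23 CPM against 0.302 and 0.123 CPM (3.66 ± 0.34, adjusted p = 7.8e-06) and was the GluRII gene with the most UMIs at that stage (53). GluRIIA with 14 UMIs, GluRIID with 18 and GluRIIE with 7 were called at 3.07 ± 0.74, 3.04 ± 0.51 and 2.32 ± 0.79, and GluRIIC with 1 UMI was not (-0.03 ± 1.39, adjusted p = 0.99). At this depth GluRIIC was hardly detectable, which does not show that it was absent. GluRIIA had all 14 of its UMIs in the first library.

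Ca-alpha1D (1.62 ± 0.19), eag (1.52 ± 0.16) and SK (0.96 ± 0.19) were higher at stages 10-12 too. nAChRalpha1 was higher in muscle-like cells at this stage, with 15.2 and 12.7 CPM against 6.68 and 3.59 CPM (1.71 ± 0.30, adjusted p = 0.00083), although it lost that call without the second stage 10-12 library (1.40). SK lost its call without the first stage 10-12 library, at 0.94, and 12 of the genes were called there in place of 19. nAChRbeta3 (-2.35 ± 0.20) and nAChRbeta2 (-0.62 ± 0.23, adjusted p = 0.043) were lower.

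The gap between muscle-like and remaining cells differed between the stages for 3 of 34 genes, 1 higher and 2 lower at stages 13-16, where 11.6% of all genes were called higher and 2.46% lower. The gap of nAChRalpha1 changed most, by -3.81 ± 0.45 (adjusted p = 0.0010), and its direction turned between the stages. The gap of SK was wider at stages 13-16 by 1.06 ± 0.22 (adjusted p = 0.013), and that of Shab, at 1.65 and 4.45 CPM in muscle-like cells of stages 13-16 and 2.82 and 0.136 CPM at stages 10-12, changed by -1.90 ± 0.49 (adjusted p = 0.030). Without the first stage 10-12 library only nAChRalpha1 was called, Shab being at -0.86 and SK at 1.08. Without cells above 20000 UMIs the value for SK was -0.17, and without the smallest muscle-like cluster of stages 10-12 the value for Shab was 0.41. The values of SK and Shab therefore rested on those cells, whereas that of nAChRalpha1 kept its sign in all alternatives tried. The number of genes called was 5 and 6 when the first or the second stage 13-16 library was left out.

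In thinned cells, 4.30% and 11.7% of muscle-like cells of stages 13-16 and 3.79% and 1.07% of those of stages 10-12 held a UMI of Sh. In gut-endoderm-like cells between 0 and 0.552% did, and in plasmatocyte-like cells between 0 and 0.926%. The unthinned shares in muscle-like cells were 13.4% and 34.1% against 15.5% and 7.51%, at median depths of 2120.5 and 9607.5 against 12135 and 15001.5 UMIs. GluRIID was detected in 0.877% and 1.32% of thinned muscle-like cells at stages 13-16, against 0.0923% and 0.215% at stages 10-12, few more than the 0 to 0.373% of gut-endoderm-like cells. Its shares per cell thus say little at 1000 UMIs, and the sums carry the result.

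Glia-like cells led for no gene of the list other than Grd, which was too scarce to be ordered. Only para and Ih had enough counts for the test between the stages, and neither passed (0 of 2 by edgeR with 1 at an unadjusted p below 0.05, and 0 by DESeq2; 6.31% of all genes were called higher and 3.84% lower). Against the remaining cells at stages 13-16, 0 of 35 genes were higher and 14 were lower, where 6.14% of all genes were called higher and 10.6% lower. At an unadjusted p below 0.05 the count in both directions was 20, and DESeq2 called 7. nAChRbeta1 stood at 2.78 and 9.02 CPM in glia-like cells, against 13.9 and 27.6 CPM in the remaining cells (-1.71 ± 0.40, adjusted p = 0.00036), and SK differed by -1.51 ± 0.39. The remaining cells include neurons, and the glial mean of nAChRbeta1 (5.90 CPM) was near the median of the classes (5.77 CPM). Without the second stage 13-16 library 4 genes were lower, and neither nAChRbeta1 (-2.10) nor SK (-2.63) was among them.

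At stages 10-12, 2 genes were higher in glia-like cells, Ih and the scarce Grd, and 5 were lower, where 7.14% of all genes were called higher and 9.71% lower. Ih stood at 9.11 and 19.0 CPM in glia-like cells, against 5.78 and 2.58 CPM in the remaining cells, and at 1.85 and 3.13 CPM in glia-like cells of stages 13-16. In the second stage 10-12 library 1 of 95 glia-like cells held every UMI of Ih, and in the first 9 of 207 cells did, so the second value rests on 1 cell. Ih is named although it fell short of the 50 UMIs asked of a named gene, and was chosen after its values had been seen. Without the first stage 10-12 library 2 genes were called in place of 7. No gene differed between the stages in this gap (0 of 35 by edgeR with 5 at an unadjusted p below 0.05, and 0 by DESeq2; 3.10% of all genes were called in either direction).

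**Figure D5:**
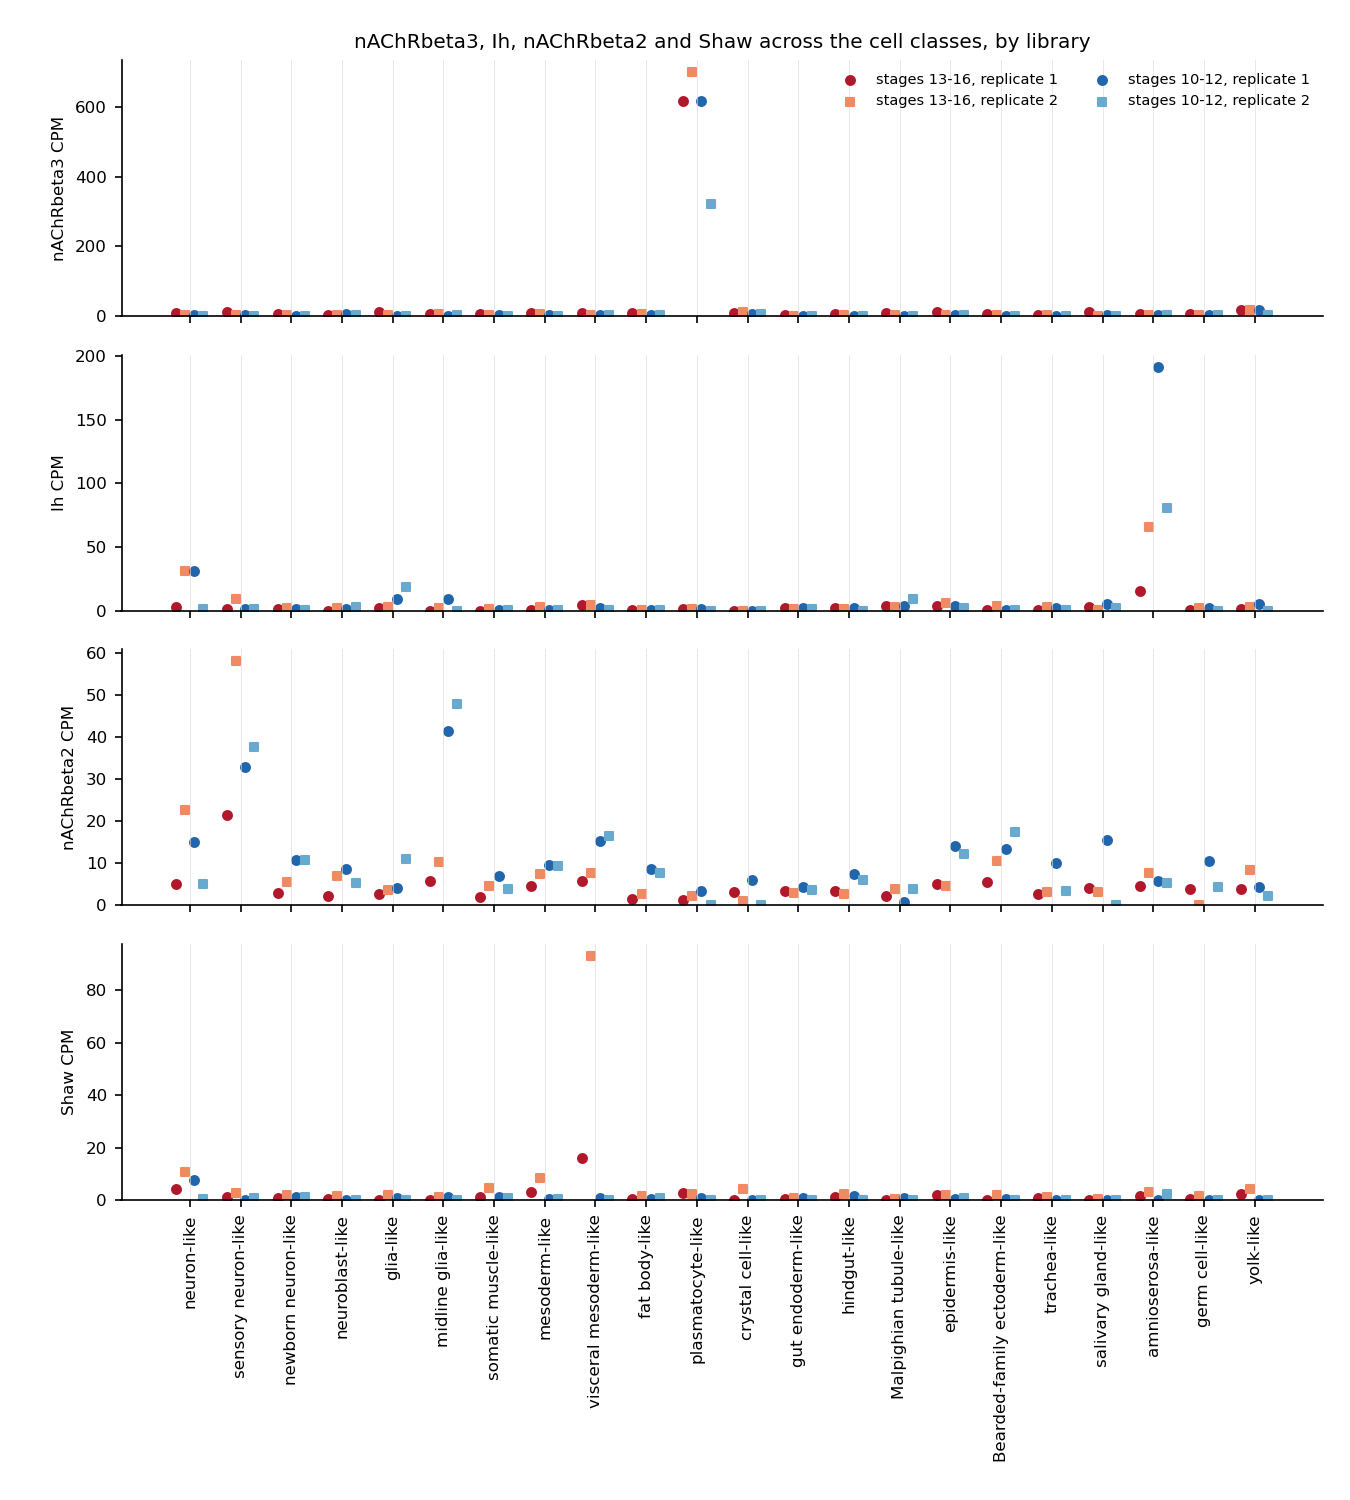
Level of nAChRbeta3, Ih, nAChRbeta2 and Shaw (panels from top to bottom) in each named class, in CPM on linear axes, with 1 point per library and stages 13-16 left of stages 10-12 within each class. nAChRbeta3 stands between 321 and 699 CPM in plasmatocyte-like cells, and Ih in amnioserosa-like cells is higher in both stage 10-12 libraries than in the stage 13-16 libraries.

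Some genes had their highest level outside nerve and muscle, and these are described without a test, having been picked after their values were seen. nAChRbeta3 (FBgn0031261, 2L:545129-547096, BDGP6.54), a divergent nicotinic receptor subunit, stood at 617 and 699 CPM in plasmatocyte-like cells at stages 13-16, against 615 and 321 CPM at stages 10-12. Plasmatocytes are the phagocytic blood cells of the fly. The next class, yolk-like cells, averaged 18.0 CPM at stages 13-16 and 9.52 CPM at stages 10-12, and neuron-like cells held 8.85 and 3.62 CPM against 2.42 and 1.02 CPM. No other annotated gene overlaps this locus on the same strand.

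In thinned cells, 18.2% (15.1 to 21.6) and 48.4% (43.6 to 53.2) of plasmatocyte-like cells of stages 13-16 held a UMI of nAChRbeta3, against 27.4% (22.6 to 32.5) and 6.98% (3.66 to 11.9) at stages 10-12. Unthinned, 36.8% and 96.3% did, against 59.0% and 13.95%. In gut-endoderm-like cells the thinned share was between 0 and 1.19%. The shares varied between the libraries of a stage far more than the CPM did, and no order of the stages is read from them.

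Ih led in amnioserosa-like cells, the extraembryonic epithelium that covers the yolk, with 15.4 and 66.0 CPM at stages 13-16, against 192 and 80.8 CPM at stages 10-12. The stage 10-12 libraries were both above the stage 13-16 libraries. Of thinned amnioserosa-like cells, 1.51% and 3.30% held a UMI of Ih at stages 13-16, against 6.15% and 5.47% at stages 10-12. SK stood at 10.8 and 154 CPM against 27.8 and 29.1 CPM in the same cells, and there the stages overlapped.

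Visceral-mesoderm-like cells, the precursors of gut muscle, led for Ca-alpha1D with 82.4 and 118 CPM at stages 13-16, against 54.8 and 51.8 CPM at stages 10-12. Shaw, a potassium channel of the Kv3 kind, stood at 16.1 and 93.1 CPM against 0.598 and 0 CPM, and Shal at 25.6 and 177 CPM against 12.2 and 8.53 CPM. GluRIIC stood at 3.79 and 37.2 CPM against 0.399 and 0 CPM. The second stage 13-16 library was the highest for each of these genes. In that library the 15 somatic muscle markers summed to 29908 CPM in visceral-mesoderm-like cells, against 7633 CPM in the first library and 5514 and 4989 CPM at stages 10-12, and the part of contractile muscle cells in these values was not tested.

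nAChRbeta2, a beta subunit, led in sensory-neuron-like cells at stages 13-16 (21.4 and 58.0 CPM, against 33.0 and 37.7 CPM at stages 10-12) and in midline-glia-like cells at stages 10-12. Midline-glia-like cells, which ensheath the commissures, held 5.88 and 10.4 CPM of it at stages 13-16, against 41.3 and 47.8 CPM at stages 10-12. nAChRalpha5 had a like order there, with 0 and 6.22 CPM against 29.7 and 20.5 CPM. For both genes the stage 13-16 libraries of midline glia were the lower ones.

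Levels of further genes are given for fat-body-like, mesoderm-like, germ-cell-like and hindgut-like cells. eag stood at 7.27 and 19.3 CPM in fat-body-like cells of stages 13-16, against 40.6 and 39.6 CPM at stages 10-12, and at 3.30 and 12.5 CPM against 42.6 and 27.6 CPM in mesoderm-like cells. nAChRalpha1 stood at 1.05 and 2.13 CPM in fat-body-like cells, against 31.7 and 20.8 CPM. Both genes were lower in both stage 13-16 libraries. In muscle-like cells eag was at 7.71 and 19.3 CPM against 25.1 and 22.5 CPM, in the same order, without passing the test. nAChRalpha4 had its highest mean at stages 10-12 in germ-cell-like cells (30.6 and 19.1 CPM at stages 13-16, against 23.1 and 15.5 CPM), without being separable from neuron-like cells (23.3 and 12.7 CPM at stages 10-12). KCNQ led in hindgut-like cells at stages 13-16 (6.36 and 4.60 CPM, against 0.280 and 0 CPM).

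Other genes of the same kind, listed by symbol as 22 further channels and subunits and 29 further transmitter receptors, were counted in the same tests, and their counts are to be read against the shares of all genes given above for each comparison. In neuron-like cells at stages 13-16, 16 of 19 tested channel genes were higher than in the remaining cells and 1 was lower (19.0% and 31.3% of all genes), among the higher ones stol, an alpha2delta subunit (5.52), and the sodium channel subunit TEH4 (4.53). Of 28 receptors tested, 23 were higher, led by the serotonin receptors 5-HT1B (5.43) and 5-HT1A (5.39). At stages 10-12, 13 of 19 channels and 20 of 28 receptors were higher, and 1 channel was lower (17.7% and 20.6% of all genes). Between the stages in neuron-like cells 1 of 15 channels (stol, 2.72) and 1 of 21 receptors (KaiR1D, a kainate-type glutamate receptor, 2.99) were higher, where 4.59% of all genes were.

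In muscle-like cells of stages 13-16, 2 of 18 channels were higher than in the remaining cells and 10 lower (29.4% and 30.1% of all genes), with the potassium channel gene sand highest (3.05). Of 24 receptors, 5 were higher and 11 lower, and the auxiliary subunit of the muscle glutamate receptor, Neto, had the largest positive value (2.77). Neto also rose between the stages in muscle-like cells, by 3.43, with the GluRII genes. At stages 10-12, 4 of 18 channels and 3 of 24 receptors were higher in muscle-like cells and 6 and 2 were lower (20.1% and 30.0% of all genes). In glia-like cells Octbeta2R, an octopamine receptor, was the only receptor that was higher than in the remaining cells, at stages 13-16 (1.92) and at stages 10-12 (2.73), and the channels that were higher were Irk3 (2.82) at stages 13-16 and Irk2 (5.03) and Ork1 (3.07) at stages 10-12. All 3 encode potassium channels.

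Sums over cells of a class do not separate fewer expressing cells from less RNA per cell. Genes with a neighbour on the same strand, besides those named above, were para (Cnx14D), Sh (CG12672), nAChRalpha5 (NimC4), KCNQ (mlt) and Nmdar1 (CG43845). Others were nAChRalpha1 (lncRNA:CR45950), nAChRalpha2 (mir-1017) and nAChRalpha3 (lncRNA:CR43695). nAChRalpha4, Ca-alpha1T, nAChRalpha7 and Grd overlapped further annotated entries on their strands, 19 of them for nAChRalpha4. All these genes may have gained or lost UMIs to such neighbours, and their values are uncertain to that extent.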

How the data were processed

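UMI counts per gene and barcode were deposited by the authors as raw matrices, made with Cell Ranger 6.1.2 per the labels, with no normalization. No column was left unused for want of a sample. The genes and lists were chosen with earlier results of these data known, and no pattern is given as independent support.

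Barcodes over 25% mitochondrial UMIs, clusters with under 50 marker genes (removed droplets) and called doublets were removed. Both libraries of each stage were then joined and clustered (2000 variable genes without the listed genes, Harmony, resolution 2) in Python 3.11.15 (numpy 2.4.6, scipy 1.17.1, pandas 2.3.3, igraph 0.11.9), after the study's steps in Seurat but rewritten, so classes need not be identical to the study's. Clusters were named from 5 best markers, and between 2.05% and 15.8% of cells per library stayed unnamed. Gene positions are from Ensembl's BDGP6.54 annotation, matched by FlyBase identifier.

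Counts were summed per class and library, the library being the replicate, and tested with edgeR's quasi-likelihood F test (version 4.0.16, R 4.3.3) after filterByExpr and TMM scaling. Adjusted p-values are Benjamini-Hochberg values over all genes tested, and calls were made at 0.05. Stages were compared within a class without a block, and a class with the remaining cells, or transmitter classes with each other, with the library as a block. Adjusted p-values are from these fits, or from the same fit on an altered class where the sentence says so. Members called with at least 50 UMIs in the class, up to 12 per comparison by size of log2 difference, and all GluRII genes in muscle are given with their statistics. The others are given by counts and ranges, and exceptions are named as such. Depth limits detection: 1 UMI in the neuron-like cells of a library corresponds to between 0.0603 and 0.509 CPM. Shares of cells used cells thinned to 1000 UMIs with 95% exact intervals.

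On simulated counts of the same depths, in which 200 genes differed by 2 on the log2 scale, the test recovered 81.5%, 93.5% and 86% of them between the stages in neuron-like, muscle-like and glia-like cells. Against the remaining cells at stages 13-16 it recovered 82.5%, 90.5% and 74.5%, and 90% for GABAergic cells. Between 1.10% and 7.53% of its calls were false. Real libraries differ by more than this simulation holds. Alternatives were DESeq2 1.42.0, RLE size factors, no filter on low counts, each library left out, other clustering settings, a replicate block, and, added after seeing the data, a crossed block, classes joined with their precursors, the smallest cluster, the cluster richest in nSyb at each stage or the cluster nearest to newborn neurons left out and cells above 20000 UMIs left out. Figures were drawn with matplotlib 3.10.9.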

Additional observations from a re-analysis of the deposited data

Results flagged for a closer look

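Each of the following was picked out because a test of the difference between the stages, an interaction term in edgeR's fit with Benjamini-Hochberg adjustment, passed its threshold.

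In neuron-like cells, the gap to the remaining cells changed by 2.58 on the log2 scale for nAChRalpha1, with 81.0 and 184 CPM in neuron-like cells of stages 13-16 against 47.6 and 8.14 CPM at stages 10-12. The gap of nAChRbeta1 changed by -1.20, while its levels outside neuron-like cells were 7.37 and 8.38 CPM at stages 13-16 against 0.607 and 0.314 CPM at stages 10-12. That sign turned with doublets kept (0.32), without Harmony (0.64) and without the smallest cluster (0.0083).

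In somatic-muscle-like cells, the gap changed by -3.81 for nAChRalpha1, by -1.90 for Shab and by 1.06 for SK. The sign of Shab turned without the smallest cluster (0.41) and with a minimum of 1000 UMIs (0.39), and that of SK without cells above 20000 UMIs (-0.17). nAChRalpha1 was below the remaining cells in both stage 13-16 libraries and above them in both stage 10-12 libraries.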

How the results depend on the processing

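Of the values over the alternatives for single genes named with statistics, 979 kept their direction and their side of the threshold. A further 101 kept the direction and lost the threshold, and 22 changed sign, which are listed below. Counts are genes called among those of the list that were tested.

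Between the stages in neuron-like cells, 2 genes were called, and DESeq2 gave 7, no filter on low counts 12, resolution 1, no removal of doublets and no Harmony correction 0 each, and a minimum of 1000 UMIs 1. A class joined with newborn neurons gave 8, omission of the smallest stage 10-12 cluster 20, of the cluster richest in nSyb at each stage 19, of the stage 10-12 cluster nearest to newborn neurons 0 and of cells above 20000 UMIs 7. Leaving out 1 library gave 0 to 17. In muscle-like cells, 14 genes were called and leaving out 1 library gave 11 to 15. In glia-like cells 0 were called, with 2 without the filter and 2 with doublets kept, 3 in a class joined with its precursor, and 0 to 1 with 1 library left out.

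Against the remaining cells, leaving out 1 library gave 21 to 32 for neuron-like cells at stages 13-16 (28 called), 7 to 27 at stages 10-12 (24) and 4 to 10 for their difference (2). For muscle-like cells it gave 21 to 26 (24), 12 to 19 (19) and 1 to 6 (3), and for glia-like cells 4 to 13 (14), 2 to 8 (7) and 0 (0). Omission of the smallest neuron-like cluster gave 11 at stages 10-12 and 13 for the difference between the stages, omission of the cluster richest in nSyb at each stage 15 and 14, and omission of the cluster nearest to newborn neurons 4 for the difference. That difference was 10 without the filter, 0 at resolution 1, 4 with doublets kept, 4 with a minimum of 1000 UMIs, 5 without Harmony and 0 for the joined class. For muscle the difference was 6 without the filter, 5 with doublets kept and 8 for the joined class. For glia-like cells DESeq2 gave 7 and 2 in place of 14 and 7, a minimum of 1000 UMIs 9 in place of 14, omission of cells above 20000 UMIs 4 in place of 7, and the joined class 1 in place of 0 for the difference. Without the filter cholinergic and glutamatergic cells had 1 gene called each in place of 0. No library could be left out for the transmitter classes, since no residual degrees of freedom remain.

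The replicate numbers do not pair the libraries: the correlation of same-numbered deviations was -0.376 in neuron-like, -0.146 in muscle-like and -0.116 in glia-like cells. With the replicate block between the stages, 2, 15 and 1 genes were called. The crossed pairing gave 12, 17 and 0. With no replicate block, the fits against the remaining cells called 17 and 16 for neuron-like cells, 12 and 6 for muscle-like cells and 1 and 1 for glia-like cells at stages 13-16 and 10-12, and 0 for each difference between the stages. The cause of these changes was not tested.

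Signs that turned were those of Rdl (-4.75 to 6.71 with 1 library left out), nAChRalpha3 (-6.04 to 6.52), slo (-7.03 to 5.63) and SK (-9.32 to 4.37) in neuron-like against remaining cells at stages 10-12, each negative without the first library of that stage, where the other library had 0 UMIs and the fitted value depends on the prior count. SK was at -0.57 there without the smallest cluster and at -0.79 without the cluster richest in nSyb, where slo was at -0.027. nAChRbeta1 in the neuronal difference between the stages was 0.32 with doublets kept, 0.64 without Harmony and 0.0083 without the smallest cluster. In muscle-like against remaining cells at stages 10-12, GluRIIA lay between -4.01 and 3.18 with 1 library left out and was negative without the first stage 10-12 library, which held all of its UMIs. GluRIIC, with 1 UMI and not called, was 0.31 with DESeq2, 0.016 with RLE size factors, 0.061 and 0.065 without the first and second stage 13-16 library, 0.10 without the second stage 10-12 library, 0.00056 with no replicate block, 0.71 in the joined class and 0.19 without cells above 20000 UMIs. In the muscle difference between the stages, Shab was 0.39 with a minimum of 1000 UMIs and 0.41 without the smallest cluster, and SK was -0.17 without cells above 20000 UMIs.

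Scaling moved the balance of calls over all genes in the muscle difference between the stages, with 1291 higher and 273 lower against 462 and 373 with RLE and 524 and 438 with DESeq2. The median of all genes there was 0.30, 0.09 and 0.07, so the values of SK (1.06), nAChRalpha1 (-3.81) and Shab (-1.90) are read against 0.30. With DESeq2 the split in glia-like against remaining cells was 419 and 435 in place of 664 and 1142 at stages 13-16, 643 and 540 in place of 773 and 1051 at stages 10-12, and 17 and 61 in place of 132 and 203 for their difference. In muscle-like cells at stages 10-12 DESeq2 called 10 listed genes higher and 5 lower in place of 10 and 9.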
